A study of Homo sapiens with 6 samples.

Results

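U3, U8 and U13 are small nucleolar RNAs of the C/D class that are transcribed from promoters of their own, in contrast to most snoRNAs, which are cut out of introns. They were taken by gene name from a table of small RNAs and make up 3 of its 142 RNAs: SNORD3 (the merged U3 genes), SNORD118 (U8) and SNORD13 (U13). The study sequenced the 3′ ends of nascent small RNAs in a degron derivative of the HEK 293T-REx line, a human embryonic kidney line, in which the 3′ exonuclease TOE1 can be degraded by an auxin. Libraries labelled TOE1+ (TOE1-present, n = 3) were compared with libraries labelled TOE1- (TOE1-depleted, n = 3). Depletion was by 600 µM indole-3-acetic acid for 8 hours, and cells of both groups took up 0.2 mM of the label ethynyl uridine over 8 hours, after which labelled RNA of 100 to 500 nt was selected. The labels do not say whether the line is 1 clone, whether TOE1-present cells received a vehicle, or whether replicates were grown apart. A p-value here therefore weighs a difference against library-to-library spread, some or all of which may be technical.

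C/D snoRNAs carry the sequence boxes C (consensus TGATGA in DNA letters, often with a mismatch) and D (CTGA), on which a shared set of proteins assembles. U3, U8 and U13 start as capped transcripts of RNA polymerase II, like the spliceosomal snRNAs, and their cap becomes trimethylated, but they bind the C/D proteins in place of the Sm ring of those snRNAs. Their precursors extend past the mature 3′ end and are trimmed. U3 is needed for the early cleavages that release the small-subunit ribosomal RNA, U8 for maturation of the large-subunit ribosomal RNAs, and U13 guides acetylation of a base of the small-subunit ribosomal RNA.

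The sequences below show annotated 3′ ends, in RefSeq for U3 and in GENCODE for U8. Which annotation the measured end positions refer to is not stated. The first is the U3 RNA of SNORD3A in RefSeq (GRCh38.p14, chr17:19188016-19188232, plus strand, 217 nt), with each TGATGA and CTGA in capitals, followed by the 20 genomic bases after it (chr17:19188233-19188252). The third joins the last 20 bases of the GENCODE model of U8 to the 10 bases downstream (hg38, chr17:8173444-8173473, minus strand), with each CTGA of the model in capitals.
U3 RNA: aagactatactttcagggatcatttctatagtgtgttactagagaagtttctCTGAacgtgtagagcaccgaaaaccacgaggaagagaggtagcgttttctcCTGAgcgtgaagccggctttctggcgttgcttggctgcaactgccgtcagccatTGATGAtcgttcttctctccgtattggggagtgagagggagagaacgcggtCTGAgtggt
U3 downstream: ttttccttcttgatggctca
U8 end: cCTGAttgctcctgtCTGAttctttctgac

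On the sense strand, with no overlap of the motifs, the last CTGA of U3 ended 5 bases before the 3′ end, and its TGATGA lay at positions 158 to 163, counted from 1 at the 5′ end. In the U8 model the last CTGA ended 1 base before the 3′ end. CTGA stood in the last 20 bases of 26.8% of the other 127 RNAs that map to a single gene and of 100% of the 18 other C/D snoRNAs among them, and TGATGA stood anywhere in 15.7% and 61.1% of them. The first A of the genome lay after 12 other bases downstream of U3, and after 8 other bases downstream of the GENCODE end of U8 or 6 downstream of its RefSeq end. An A directly at any of these ends is therefore not templated by the genome. U3 is followed by a run of 4 T, and U8 by 1 T after its GENCODE end or 3 T after its RefSeq end. A U added at any of these ends thus has the same letter as the genome.

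The U3 value merges 6 gene identifiers under 5 symbols, all on chromosome 17. Compared with SNORD3A, the RefSeq U3 RNA of SNORD3B-1 and that of SNORD3B-2 carried the single difference A78C, and that of SNORD3C carried G108A (the base of SNORD3A first, positions from 1 at the 5′ end). SNORD3D carried A4G, C53T and A78C, an identity of 98.6%. The last 109 bases or more and the first 49 downstream bases or more were identical in all copies, so 3′ end reads of the copies cannot be told apart. GENCODE models of SNORD3A, SNORD3B-1, SNORD3B-2 and SNORD3C are 699, 758, 791 and 581 nt long. These models end further downstream than the RefSeq U3 RNA. U8 has a GENCODE model of 134 nt and a RefSeq model of 137 nt whose 3′ end lies 2 nt further downstream. It lies inside exons annotated as UTR of TMEM107 on the same strand, so that reads from fragments of that transcript cannot be told apart from U8 reads. U13 is annotated on chromosome 8 at 33513475 to 33513578, plus strand, with a length of 104 nt.

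Over the 6 libraries U3 had 11419 reads, U13 1659 and U8 256. The library totals were 34581 to 57078 reads in TOE1-present and 32813 to 75353 in TOE1-depleted cells. All TOE1-present libraries and TOE1-depleted replicate 1 were ligated to adaptor AG10, and TOE1-depleted replicates 2 and 3 to adaptor AG11, so that adaptor and condition are partly confounded. Replicate 1 of both groups stood apart in how reads fell on overlapping gene models of other RNAs: the 7SK model AL162581.1 had 3533 and 6348 reads there and 0 in the other 4 libraries. The U2 model AC024051.4 had 5602 reads in TOE1-present and 15817 in TOE1-depleted replicate 1, 261 in TOE1-present replicate 2 and 0 in the rest. These reads are part of the library totals. The table holds small RNAs only, so neither the loss of TOE1 nor markers of the cell line were checked here.

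The first comparison asked whether the 3′ ends of the 3 snoRNAs moved when TOE1 was depleted. The end of the part templated by the genome moved past the threshold in none of them, against 2.16% of the 139 RNAs with a p (3 RNAs). Differences are the authors', TOE1-depleted minus TOE1-present, with negative values upstream, and the 95% intervals were recovered from their differences and p-values. In the control, the authors' deposited table gives a median end position of 0 nt for U3, 2 nt for U8 and 0 nt for U13. The annotation that sets position 0 is not stated. The 2 nt of U8 equal the distance between its GENCODE and RefSeq ends. The header does not say whether these control positions count the untemplated tail. Mean control positions in the authors' deposited table were 0.369 nt for U3, 2.36 nt for U8 and 1.73 nt for U13, so that the mean of U13 lay further from its median than that of U3 or U8.

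For U3, which has the most reads of the 3, the authors' deposited table gives a templated end difference of 0.123 nt (interval −0.109 to 0.354 nt, Benjamini-Hochberg adjusted p = 0.677). That interval is the narrowest of the 3 snoRNAs. For U8 the authors' deposited table gives −0.0578 nt (−0.851 to 0.736 nt, adjusted p = 0.938), the widest interval of the 3. For U13 the authors' deposited table gives −0.521 nt (−0.791 to −0.251 nt, p = 0.00583). That p did not pass after adjustment over the 139 RNAs (adjusted p = 0.162, and 0.211 with limma's moderated variance), while 7.19% of them had an upstream difference at an unadjusted p under 0.05. Among the 59 RNAs with at least 200 reads, U13 ranked 7 from the most upstream difference and 4 from the lowest p.

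With the untemplated tail counted, none of the 3 total ends passed the adjusted threshold, against 2.16% of 139 RNAs. The authors' deposited table gives total end differences of 0.109 nt for U3 (−0.139 to 0.358 nt, adjusted p = 0.766) and −0.182 nt for U8 (−1.13 to 0.768 nt, adjusted p = 0.901). For U13 the total end difference in the authors' deposited table was −0.714 nt (−1.14 to −0.291 nt, p = 0.00940, adjusted p = 0.288), where 5.76% of RNAs had an upstream difference at an unadjusted p under 0.05. The authors' deposited table also holds a Kolmogorov-Smirnov p, in which reads and not libraries are the replicates. Its header carries the word median and does not say how the reads of the libraries were combined. By that Kolmogorov-Smirnov test in the authors' deposited table the U13 total ends differed (distance 0.265, adjusted p = 5.55e-07), as did those of 24 of 141 RNAs (17%). The templated ends of U13 did not pass it (distance 0.0894 and p = 0.293 in the authors' deposited table), where 9.22% of RNAs did. U3 and U8 passed by it for neither end.

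**Figure D1:**
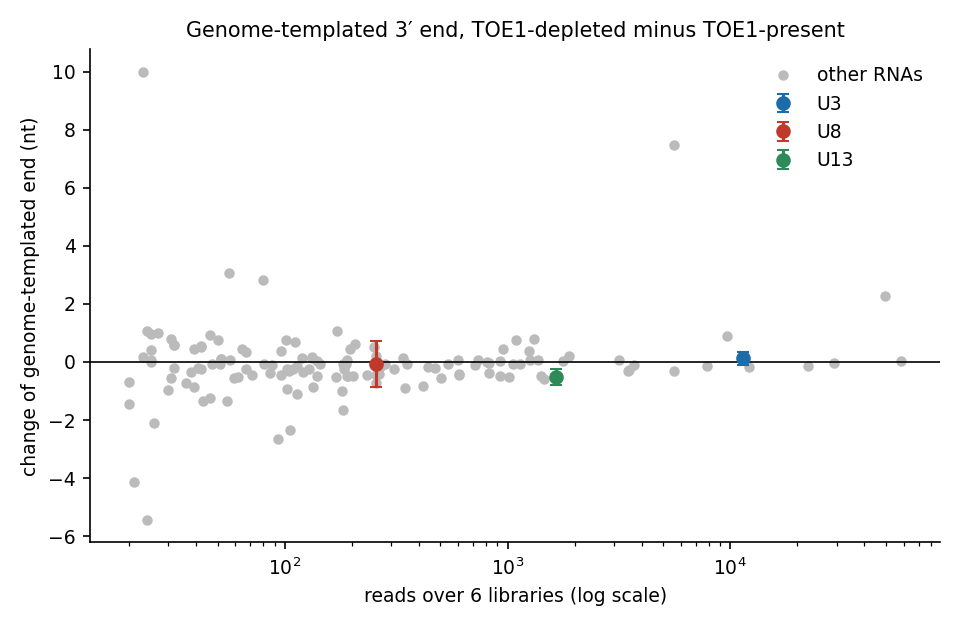
Change of the genome-templated 3′ end (nt, TOE1-depleted minus TOE1-present, as deposited) against reads over 6 libraries (log scale). Each point is an RNA, U3, U8 and U13 carry their 95% intervals, and U13 lies at −0.521 nt while U3 (0.123 nt) and U8 (−0.0578 nt) have intervals that include 0.

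The U13 difference split into its parts as follows. Of the −0.714 nt, the templated end made up −0.521 nt and A bases of the tail −0.252 nt (−0.411 to −0.0926 nt, p = 0.0118, adjusted p = 0.334) in the authors' deposited table. In the authors' deposited table the other U13 tail bases differed by 0.0176 nt (U), 0.0164 nt (C) and 0.0251 nt (G), and all 3 intervals include 0. No U, C or G difference of the 3 snoRNAs passed the adjusted threshold, against 0.787% of 127 RNAs for U and 0% for C and G. The authors' deposited table gives A-base differences of −0.166 nt for U8 (−0.487 to 0.154 nt) and −0.0175 nt for U3 (−0.120 to 0.0853 nt). Differences in A bases were negative for all 3 snoRNAs, as for 68.6% of 137 RNAs, and no RNA of the table passed the adjusted threshold (0%), with 9.49% lower at an unadjusted p under 0.05.

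**Figure D2:**
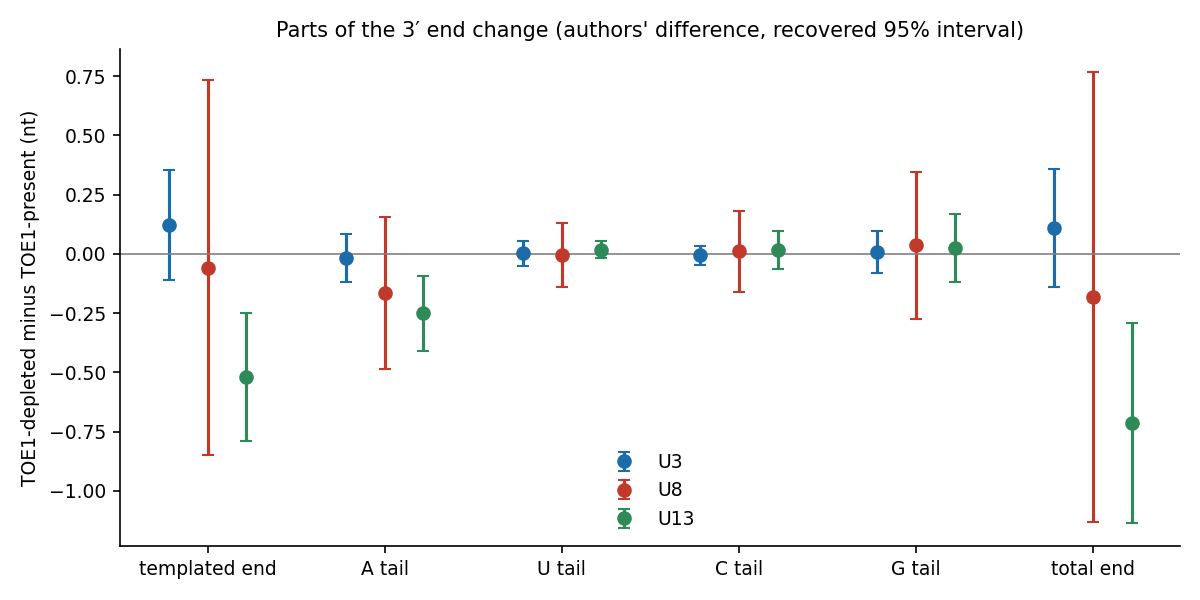
Change in nt per read (TOE1-depleted minus TOE1-present, as deposited, with recovered 95% intervals) of the templated end, of the A, U, C and G bases of the tail, and of the total end. The U13 intervals of the templated end, the A tail and the total end lie below 0, and every interval of U3 and U8 includes 0.

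The makeup of the tails differed between the 3 snoRNAs. In TOE1-present cells the authors' deposited table gives 0.165 untemplated A bases per read for U3, 0.478 for U8 and 0.593 for U13. That table gives control levels and differences only, and levels in depleted cells are their sums, computed here. With TOE1 depleted, the A bases per read computed from the authors' deposited table were 0.147 for U3, 0.311 for U8 and 0.341 for U13. Computed from the authors' deposited table, A made up 39.6% of the untemplated bases of U3, 63.6% of those of U8 and 68.3% of those of U13 in TOE1-present cells. The same shares in depleted cells were 36.6%, 49.8% and 50.4%. U3 thus had the lowest share of the 3 RNAs in both groups, and U8 and U13 were closest to each other. These shares carry no error, and differences between the RNAs were not tested.

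The share of reads with an untemplated A tail is another measure, per read, and does not follow from the A bases per read. U8 and U13 were among the RNAs with the most A-tailed reads and U3 among those with the fewest. The authors' deposited table gives A-tailed shares of 35.1% for U8 and 31.3% for U13 in TOE1-present cells. These ranked 9 and 12 from the highest of the 57 RNAs with at least 200 reads and a p for this share. RNAs without such a p were not ranked. In depleted cells the shares computed from the authors' deposited table were 11.2% for U8 and 11.3% for U13. The difference of U8 was −23.9 percentage points in the authors' deposited table (−53.9 to 6.01, p = 0.0907, adjusted p = 0.260). That of U13 was −19.96 percentage points in the authors' deposited table (−34.7 to −5.17, p = 0.01998, adjusted p = 0.214).

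For U3 the authors' deposited table gives an A-tailed share of 4.12% in TOE1-present cells, rank 2 from the lowest of the same 57 RNAs. The difference of U3 in the authors' deposited table was −0.725 percentage points (−5.86 to 4.41, adjusted p = 0.783). No snoRNA of the 3 passed the adjusted threshold, nor did any other of the 128 RNAs with a p (0%), with U13 the only one of the 3 at an unadjusted p under 0.05, where 18.8% of RNAs were lower. A lower share in depleted cells was the usual direction: it held for 77.3% of the 128 RNAs, and the median over the 57 RNAs was 19.2% with TOE1 and 10.2% without, computed from the authors' deposited table. The differences of U8 and U13 ranked 4 and 5 from the lowest of these 57, and that of U3 ranked 52. A share cannot fall by more than its level with TOE1. At 4.12%, U3 could therefore not reach the median difference of the 57, −9.31 percentage points, and its rank partly follows from its low level. Relative to its level the fall of U3, to 3.39% computed from the authors' deposited table, was also smaller than that between the medians. The interval of the U3 difference includes a complete loss. Adaptor moves with condition in these shares, which the table does not give per library, and its part in them was not tested.

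**Figure D3:**
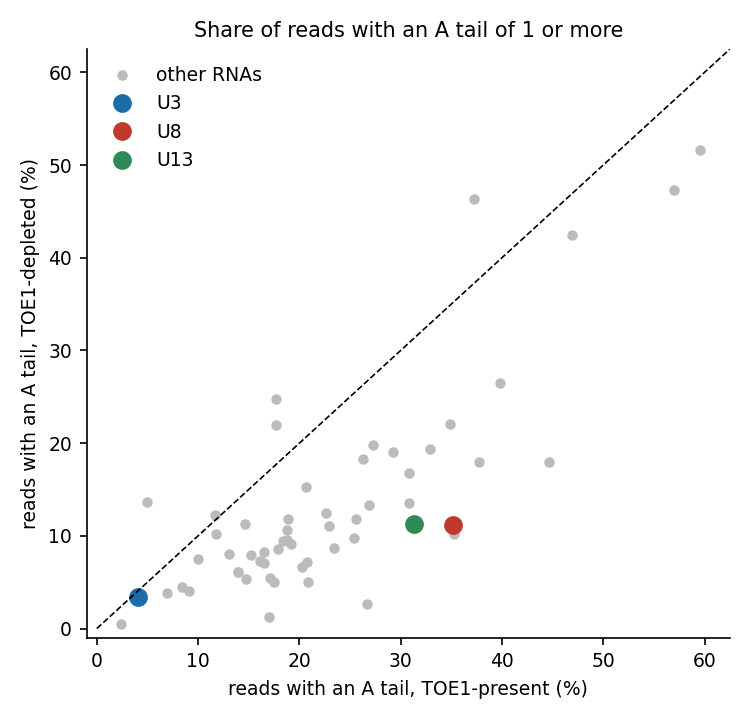
Share of reads (%) with an untemplated A tail of 1 base or more in TOE1-present (x axis) and TOE1-depleted (y axis) cells. Each of the points is 1 RNA with at least 200 reads and a p for this share, and the dashed line marks equality. U8 (35.1% and 11.2%) and U13 (31.3% and 11.3%) lie far below the line and U3 (4.12% and 3.39%) close to it.

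Most reads of this A-tailed class carried a single A. The A-tail classes do not count every untemplated A. In TOE1-present cells the authors' deposited table gives U8 0.478 A bases per read, but exactly 1 A on 35.1% of reads and 2 or more A on 0%. For U13, 25.95% of reads in TOE1-present and 8.19% in depleted cells carried exactly 1 A, computed from the authors' deposited table (p = 0.0334, adjusted p = 0.232). U13 tails of 2 or more A were on 5.33% and 3.14% of reads, and tails of 3 or more A on 3.65% and 2.25%, computed from the authors' deposited table (p = 0.260 and 0.229). Neither passed, against 1.08% of 93 RNAs for 2 or more A and 1.37% of 73 for 3 or more A. For U8 the authors' deposited table lists tails of 2 or more A at 0 in the control with a difference of 0, which at 83 and 173 reads allows shares of that class of up to 3.61% and 1.73% (3 reads, counting error only). U3 carried tails of 2 or more A on 0.516% and 0.175% of reads, computed from the authors' deposited table (p = 0.264).

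As a share of reads, U tails were rare at U3 and listed at 0 for U8 and U13. Yet the authors' deposited table gives 0.0626 untemplated U bases per read for U3, 0.0783 for U8 and 0.0574 for U13 in TOE1-present cells. The U-tail classes therefore do not count every untemplated U. A U added at the end of U3 or U8 has the same letter as the genome, so these values may miss added U there. Computed from the authors' deposited table, U tails were on 0.295% of U3 reads in TOE1-present and 0.121% in depleted cells (p = 0.170). At U13, 0 reads in the U-tail class allow a share of that class of up to 0.682% with TOE1 and 0.246% without it. Tails headed AU+, a class that the labels do not define, stood on 0.0426% and 0.0501% of U3 reads, computed from the authors' deposited table. These shares are close to the 0.0545% and 0.0507% that 3 reads of U3 make up.

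The second comparison asked how much of each snoRNA was recovered among nascent RNAs, from the reads of each library. Scaled by TMM, which sets libraries to a common level on the assumption that most RNAs do not change, U3 was lower in every depleted library, U13 was higher in every depleted library, and U8 overlapped between the groups. None of the 3 passed the adjusted threshold in edgeR's quasi-likelihood test, against 7.92% of the 101 RNAs tested. Non-overlap upward, as for U13, was found for 16.8% of RNAs and non-overlap downward, as for U3, for 14.9%. At an unadjusted p under 0.05 in edgeR, U13 was among the 15.8% of RNAs that were higher and U3 among the 11.9% that were lower. In such bulk libraries a change in the share of cells that hold an RNA and a change in its amount per cell cannot be told apart.

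U3 had 2350, 1741 and 1414 reads in TOE1-present replicates 1 to 3 and 2035, 1562 and 2317 in TOE1-depleted replicates 1 to 3. The TMM-scaled values of U3 were 55527, 54243 and 48192 CPM with TOE1 and 29910, 37775 and 28510 CPM without it. The mean of U3 was 52654 ± 3917 CPM with TOE1 and 32065 ± 4994 CPM without it (SD, n = 3 each). The log2 change of U3 was −0.72 ± 0.21 (SE), or 0.609-fold, with an adjusted p of 0.0924 in edgeR's quasi-likelihood test with Benjamini-Hochberg adjustment. It ranked 9 from the lowest of the 101 RNAs. With the split models of RMRP, 7SK and U2 summed, U3 fell by 0.73 with an adjusted p of 0.0413 in the same edgeR test, where 13.1% of RNAs passed. DESeq2 gave a U3 change of −0.77 with an adjusted p of 0.000121, where 18.2% of RNAs passed.

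U13 had 147, 163 and 130 reads with TOE1 and 480, 253 and 486 without it, in replicates 1 to 3. TMM-scaled values of U13 were 3473, 5078 and 4431 CPM with TOE1 and 7055, 6119 and 5980 CPM without it, with means of 4328 ± 807 and 6384 ± 585 CPM (SD, n = 3 each). The lowest depleted library lay above the highest TOE1-present library. The log2 change of U13 was 0.56 ± 0.17 (SE), or 1.48-fold, with an adjusted p of 0.0924 in edgeR's quasi-likelihood test, and ranked 19 from the highest of the 101. With a replicate block in the same edgeR test the log2 change of U13 was 0.58 and passed (adjusted p = 0.0340, with 17.8% of RNAs passing). In DESeq2 the change of U13 was 0.52 and passed (adjusted p = 0.0366). Without both replicate 1 libraries it was 0.33 (edgeR adjusted p = 0.418).

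U8 had 44, 24 and 15 reads with TOE1 and 81, 34 and 58 without it, in replicates 1 to 3. TMM-scaled values of U8 were 1040, 748 and 511 CPM with TOE1 and 1191, 822 and 714 CPM without it, with means of 766 ± 265 and 909 ± 250 CPM (SD, n = 3 each). TOE1-present replicate 1 lay above 2 of the 3 depleted libraries. The log2 change of U8 was 0.22 ± 0.32 (SE), with an adjusted p of 0.789 in edgeR's quasi-likelihood test. The sign of the U8 change rested on single libraries: it was −0.016 without TOE1-present replicate 3 and −0.065 without TOE1-depleted replicate 1.

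**Figure D4:**
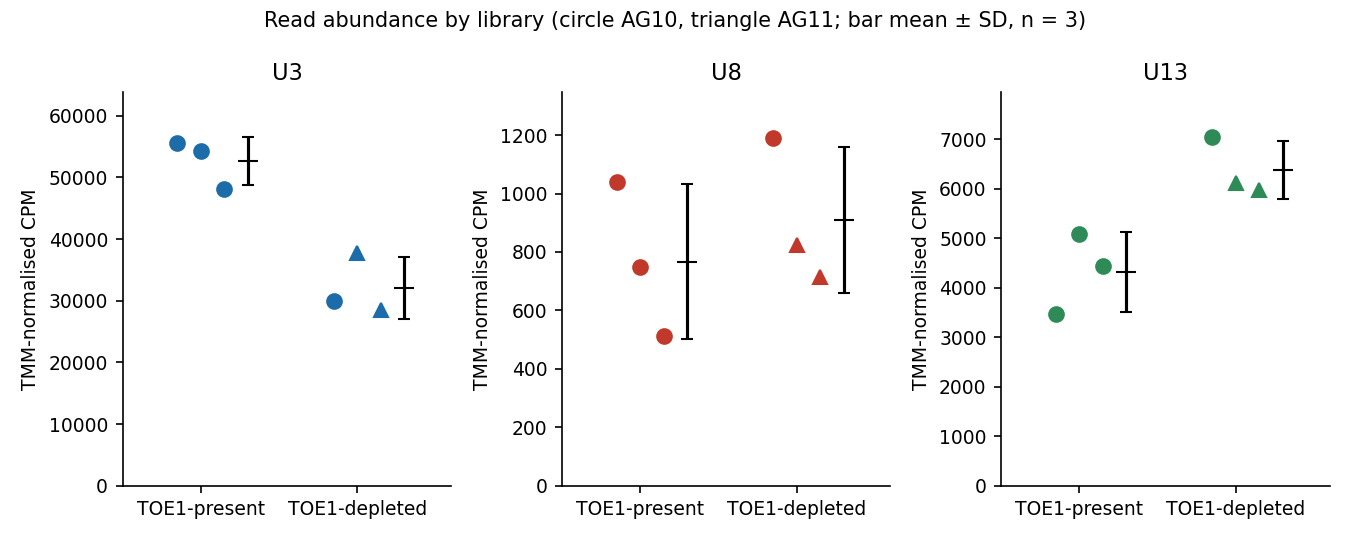
TMM-normalised CPM of U3, U8 and U13 in each library (circles, adaptor AG10; triangles, adaptor AG11), with mean ± SD of each group of 3. All depleted libraries lie below the TOE1-present ones for U3 and above them for U13, while the groups overlap for U8.

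These directions depend on the scale. Scaled by the library total alone, as RPM, U3 had 41172, 50346 and 36713 with TOE1 and 27006, 47603 and 39843 without it, and the groups overlapped. U13 had 2575, 4714 and 3375 RPM with TOE1 and 6370, 7710 and 8357 without it, and U8 had 771, 694 and 389 with TOE1 and 1075, 1036 and 997 without it. Both U13 and U8 were then higher in every depleted library, as were 42.6% of the 101 RNAs. With library totals in place of TMM the log2 change was −0.16 for U3, 0.74 for U8 and 1.09 for U13, and that of U13 passed in edgeR (adjusted p = 0.0235), as did 30.7% of RNAs. On that scale the median change of the 101 RNAs was 0.63, and on the TMM scale 0.08. A change of scale shifts the log2 change of all RNAs by nearly the same amount. Relative to the median of all RNAs the 2 scales therefore had to give similar log2 values for each snoRNA. They were −0.79 and −0.79 for U3, 0.11 and 0.14 for U8, and 0.46 and 0.49 for U13.

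Ratios between the 3 snoRNAs within a library do not depend on any scaling, and were added after the values had been seen. U13 had 6.26, 9.36 and 9.19 reads per 100 reads of U3 in TOE1-present replicates 1 to 3 and 23.6, 16.2 and 21.0 in depleted replicates 1 to 3. The ratio of U13 to U3 was 2.46-fold higher in depleted cells, with no overlap (2-sided exact permutation p = 0.1, the smallest that 3 against 3 libraries allow, adjusted p = 0.15 over 3 ratios). Of the 99 other RNAs, 59.6% were likewise higher relative to U3 in every depleted library. Without both replicate 1 libraries the log2 difference of U13 to U3 was 0.99, against 1.30 with all libraries.

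U8 had 1.87, 1.38 and 1.061 reads per 100 reads of U3 with TOE1 and 3.98, 2.18 and 2.50 without it, again with no overlap (1.99-fold, exact permutation p = 0.1, adjusted p = 0.15), as for 59.6% of the 99 other RNAs. U13 and U8 did not separate from each other. U13 had 334, 679 and 867 reads per 100 reads of U8 with TOE1 and 593, 744 and 838 without it, and these overlapped (1.23-fold, exact permutation p = 0.7), where 5.05% of the 99 other RNAs were higher relative to U8 in every depleted library. The direction of this ratio turned without TOE1-present replicate 1 (log2 difference −0.096, against 0.30 with all libraries).

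**Figure D5:**
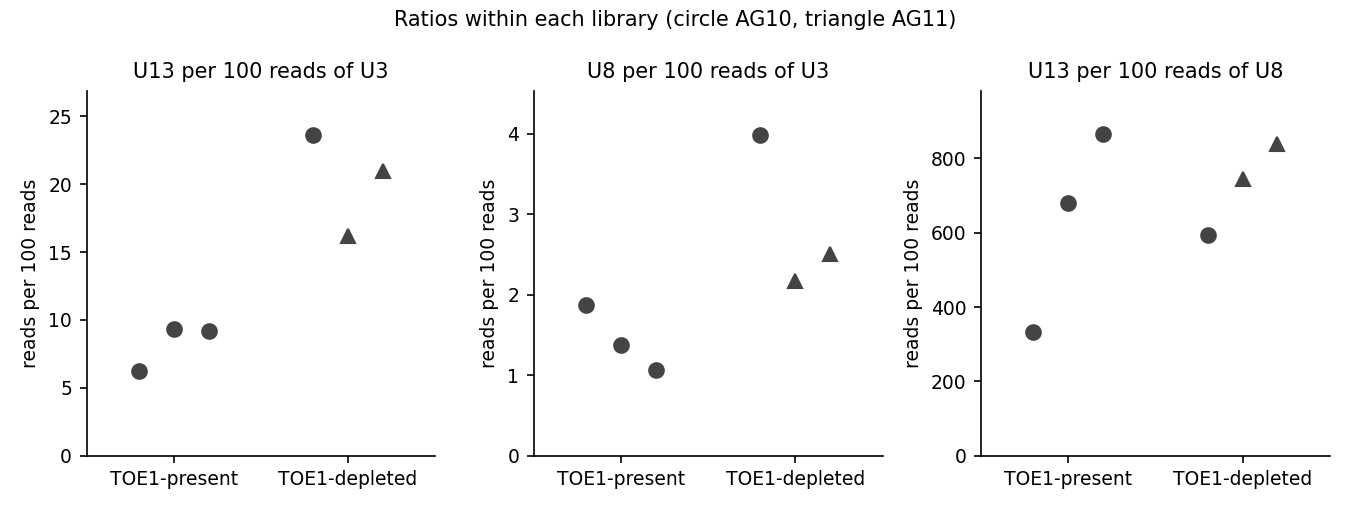
Reads of U13 per 100 reads of U3, of U8 per 100 reads of U3 and of U13 per 100 reads of U8 in each library (circles, adaptor AG10; triangles, adaptor AG11). Both ratios to U3 are higher in all 3 depleted libraries (U13 16.2 to 23.6, against 6.26 to 9.36), and the ratio of U13 to U8 overlaps.

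The adaptor moved with the depleted group, and its part in these differences was not tested beyond the following values. Both AG11 libraries are depleted ones, so with adaptor as a term the group difference rests on depleted replicate 1 against the TOE1-present libraries. With that term in edgeR the log2 change was −0.82 for U3, 0.60 for U8 and 0.71 for U13 (adjusted p = 0.238, 0.332 and 0.202). The AG10 libraries alone, which leave 1 depleted library, make the same contrast and gave −0.84 for U3, 0.56 for U8 and 0.68 for U13 in edgeR. Both values of U8 are over 2 times its 0.22 over all libraries, but they rest on the same 1 depleted library. Within AG10 the depleted group is replicate 1 alone, which stood apart as described, and without both replicate 1 libraries the log2 change in edgeR was −0.64 for U3, 0.25 for U8 and 0.33 for U13 (adjusted p = 0.152, 0.756 and 0.418).

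Across the 6 libraries, the RNAs whose log2 TMM-scaled CPM was most like that of each snoRNA were named by Pearson correlation over 88 RNAs with at least 100 reads. This is a description over 6 libraries that share depth and group. For U3 they were U2 (RNU2 WT, r = 0.986, log2 change −0.50) and RN7SK, the RNA of the 7SK particle (r = 0.93, −0.67), 2 families whose reads also fell on other models in replicate 1. For U8 they were the Y RNA RNY3 (r = 0.959, 140 reads) and the H/ACA snoRNA SNORA48 (r = 0.826). For U13 they were the H/ACA snoRNA SNORA10 (r = 0.96, log2 change 0.098) and the C/D snoRNA SNORD83A (r = 0.93), whose log2 change of 1.22 passed in edgeR (adjusted p = 0.0348).

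Lists of related RNAs were set beside U3, U8 and U13 by counts and medians only. For the genome-templated end, 7 other entries for RNAs that act in ribosomal RNA processing (SNORD22, SNORA62, SNORA63, SNORA73A, SNORA73B and 2 models of RMRP) all had negative differences, as did 86 of 139 RNAs. Their median in the authors' deposited table was −0.168 nt, against −0.102 nt over all 139, and none passed. SNORA73A and SNORA73B are entries for the U17 snoRNA, needed for early cleavages of the ribosomal precursor. Of these, SNORA73A had −0.322 nt in the authors' deposited table (p = 0.0139, adjusted p = 0.254). SNORA73B, with more reads, had −0.119 nt in the authors' deposited table (p = 0.305, adjusted p = 0.703). For the 19 other C/D snoRNAs the median was −0.200 nt in the authors' deposited table, 12 were negative and none passed. Among the 11 Sm-class snRNAs, which share the trimethylated cap of U3, U8 and U13, 9 had positive differences and 2 passed, with a median of 0.756 nt in the authors' deposited table.

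In A-tailed share, the 35.1% of U8 and 31.3% of U13 stood above the medians of every list in TOE1-present cells. These medians were 13.9% for the other C/D snoRNAs, 20.2% for the RNAs of ribosomal RNA processing, 27.3% for the Sm class and 21.98% for all RNAs in the authors' deposited table. U3, at 4.12% in the authors' deposited table, stood below them all. Without TOE1 the list medians were 6.63%, 8.68%, 19.8% and 11.1%, computed from the authors' deposited table, so that U8 and U13, at 11.2% and 11.3% there, lay near the median of all RNAs. In abundance, 1 of 13 other C/D snoRNAs tested rose and none fell in edgeR, beside 8 of all 101 RNAs (5 higher and 3 lower), and 10 of the 13 were above 0, with a median log2 change of 0.23. Of the 5 ribosomal RNA processing entries tested none passed and all 5 were below 0, as were 41 of 101 RNAs. The 2 of them that are RMRP models, with errors of 2.53 and 1.32 (SE, log2), share reads that fell on the models differently by library.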

How the data were processed

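Nascent small RNA 3′ ends were read in 6 libraries, 3 of each group, with groups and replicate numbers from the sample titles. Reads were aligned with STAR 2.7.8a to hg38, per the submitters' processing notes. Which annotation was used, how multi-copy reads were assigned and whether molecular identifiers were counted is not stated in the labels, so floors cover counting error only. The authors deposited raw read counts per RNA and library. The authors' deposited table also gives, for the control only, 3′ end positions in nt from −10 to 50, tail bases and shares, with the depleted-minus-control differences and their p-values. Levels in depleted cells were computed as control plus difference. The difference TE minus GE equalled the summed tail changes in 142 of 142 RNAs, so TE was read as the total and GE as the templated end. Shares, deposited as fractions, were multiplied to percent. Deposited p-values were adjusted by Benjamini-Hochberg over every RNA that had one (threshold 0.05), and 95% intervals were recovered with 4 degrees of freedom.

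Counts were tested with edgeR 4.0.16 (TMM, filterByExpr, quasi-likelihood, R 4.3.3), first tested on simulated data; limma 3.58.1, DESeq2 1.42.0, other scalings, an adaptor term, a replicate block and left-out libraries were alternatives. Deviations of libraries with the same replicate number correlated at 0.907, 0.258 and 0.808, above the 0.1 set for pairing, but TOE1-present replicate 3 correlated at 0.811 with depleted replicate 2 and TOE1-present replicate 2 at 0.275 with depleted replicate 3. Without RMRP, AL162581.1, AC024051.4 and RNU2 WT the same-number correlations were 0.0227, 0.00716 and 0.146. The numbers come from the titles, which do not say what they mark, and the block does not rest on a known pairing. Coordinates are 1-based from GENCODE 44 and RefSeq GRCh38.p14, and all 6 identifiers of U3 and those of U8 and U13 were matched by symbol or identifier. The 3 members, the lists and the rule for named RNAs (the members, the listed classes, and the 2 RNAs most like each member) were chosen with earlier results of these data known.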

Additional observations from a re-analysis of the deposited data

How the results depend on the processing

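The number of RNAs called in abundance, 8 in edgeR, was 18 with DESeq2, 31 with library totals, 5 without a filter on low counts, 13 with split gene models summed and 18 with the replicate block. It was 0 with an adaptor term, where the group difference rests on 1 depleted library. Leaving out 1 library at a time gave 0 to 2 calls, whichever library it was. U13 passed with DESeq2 (log2 change 0.52, adjusted p = 0.0366), library totals (1.09, 0.0235) and the replicate block (0.58, 0.0340). U3 passed with DESeq2 (−0.77, 0.000121) and with models summed (−0.73, 0.0413). No other call on U3, U8 or U13 changed with the block. Without 1 library at a time, U13 ranged from 0.38 to 0.65, U3 from −0.86 to −0.64 and U8 from −0.065 to 0.48, with U8 at −0.016 without TOE1-present replicate 3 and −0.065 without TOE1-depleted replicate 1. The log2 ratios ranged from 1.11 to 1.45 (U13 to U3), 0.74 to 1.21 (U8 to U3) and −0.096 to 0.59 (U13 to U8), the last at −0.096 without TOE1-present replicate 1. Without both replicate 1 libraries, an alternative chosen after seeing the data, U13 to U3 was 0.99. By the Kolmogorov-Smirnov p, 13 RNAs were called for the templated end and 24 for the total end, against 3 each, U13 among the latter (−0.714 nt, adjusted p = 5.55e-07). Restricted to RNAs of 100 or more reads in each condition, 1 RNA was called in A-tailed share, against 0, and U8, with 83 control reads, gave no value. The cause of these changes was not tested. The adjusted p of U13 ranged over its alternatives from 0.0699 to 1 for the templated end and from 0.122 to 0.459 for the A-tailed share. The 256 reads of U8 limit every statement on it.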
